A study of Homo sapiens with 12 samples.

Results

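ZNF766, ZNF480, ZNF83, ZNF611, ZNF28, ZNF468 and ZNF160 are 7 zinc finger genes of the cluster on the long arm of human chromosome 19, in band 19q13.41. They were picked by name from the 58302 genes of the deposited table, with their values in these same libraries already known, so their differences between lines are given as a description and without a test. Most belong to the KRAB zinc finger family, whose proteins read DNA with arrays of C2H2 fingers and recruit the corepressor TRIM28 (also called KAP1) through the KRAB domain. TRIM28 in turn brings in the histone H3 lysine 9 methyltransferase SETDB1 and HP1 proteins, and the complex is best known for silencing retroelements. The genes of this family arose by tandem duplication, and many lie side by side in clusters on chromosome 19.

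The RNA was sequenced to compare TPC1, a line from a human papillary thyroid carcinoma carrying unmodified Dicer1, with the Dicer1 (+/-) lines D11, WB1 and TD5. DICER1 encodes the ribonuclease that cuts microRNA precursors, and each derived line had 1 of its alleles disrupted by CRISPR/Cas9 in TPC1 cells and was grown from 1 sorted cell. A difference between a clone and TPC1 therefore cannot be told apart from a difference between that founding cell and the TPC1 population. Each line had 3 libraries and no treatment. The labels do not say whether these came from separate cultures, so the adjusted p-values measure the spread between these libraries, which may be technical.

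The values are reads counted on genes, scaled by the authors to 20000000 aligned reads per library and rounded up, and are called scaled reads here. The depth behind them was estimated at 12700000 to 21020000 reads per library. The lowest level taken as detected lay above 3 reads, a floor worth 2.85 to 4.72 scaled reads that accounts for counting error alone. DICER1 itself had 1101 to 1360 scaled reads in TPC1, and D11 (977 to 1093), WB1 (815 to 939) and TD5 (627 to 809) lay below it in all 9 libraries. Among thyroid markers, PAX8 had 7248 to 9879 scaled reads, FOXE1 93 to 316 and TG 11 to 27, while TSHR, SLC5A5 and NKX2-1 were at 0 in all 12 libraries. KRT8 and KRT18, epithelial keratins, had 10280 to 16274 and 5237 to 7775 scaled reads, but KRT19, EPCAM and CDH1 did not exceed 6, 5 and 2. The blood and vessel markers PTPRC and PECAM1 did not exceed 3 and 7, and CD3E was at 0.

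On GRCh38 the 7 genes spanned 833848 bases, and the annotation (GENCODE 44) lists them all as protein coding. ZNF766 (ENSG00000196214, chromosome 19, 52269587 to 52296046) and ZNF480 (ENSG00000198464, 52297169 to 52325922) lie on the plus strand, 1122 bases apart. The other genes lie on the minus strand. They are ZNF83 (ENSG00000167766, 52594060 to 52690559), ZNF611 (ENSG00000213020, 52702813 to 52735073), ZNF28 (ENSG00000198538, 52797408 to 52857600), ZNF468 (ENSG00000204604, 52838010 to 52857649) and ZNF160 (ENSG00000170949, 53066606 to 53103434). ZNF28 and ZNF468 overlap, and their annotated starts are 49 bases apart. Gaps of 268137 and 208956 bases separate ZNF480 from ZNF83 and ZNF468 from ZNF160.

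By annotated exon overlap and exact matches of 100 bases, the 7 genes share little sequence with each other or with other genes. Similar stretches with scattered mismatches are not counted in this way, and whether reads were misplaced between related genes was not tested. ZNF28 and ZNF468 share 29 exon bases on the same strand, or 0.5% of the exon bases of ZNF28. Of all 100-base words of the canonical transcripts, 1.9% of those of ZNF28 also occur in ZNF468, 2.0% of those of ZNF468 occur in ZNF28, and 2.1% of those of ZNF611 occur in ZNF600 or ZNF808. ZNF83 shares 337 exon bases (4.2%) with an overlapping gene on its own strand, listed as AC022150.4 in the deposited table. The libraries were stranded, but the strand setting used for counting was not given in the sources used here, and 72 exon bases of ZNF480 and 201 of ZNF28 lie opposite exons of other genes.

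The start regions of a pair of genes that were near or at 0 in the clones (ZNF160 and ZNF468) and of a pair that were not (ZNF83 and ZNF611) are shown for comparison. Each sequence runs from 250 bases before to 50 bases after a start site of the RefSeq table for GRCh38.p14, 5′ to 3′ on the minus strand. For ZNF83 the start at the 5′ end of the gene was taken, which is also the annotated start of AC022150.4. The windows are chr19:53103373-53103672 for ZNF160, chr19:52857570-52857869 for ZNF468, chr19:52690447-52690746 for ZNF83 and chr19:52734995-52735294 for ZNF611. Capitals mark CCGGAAG, a word with the GGAA core that ETS factors bind, and GGGCGG, the GC box bound by SP1, wherever either stands on one strand or the other.
ZNF160: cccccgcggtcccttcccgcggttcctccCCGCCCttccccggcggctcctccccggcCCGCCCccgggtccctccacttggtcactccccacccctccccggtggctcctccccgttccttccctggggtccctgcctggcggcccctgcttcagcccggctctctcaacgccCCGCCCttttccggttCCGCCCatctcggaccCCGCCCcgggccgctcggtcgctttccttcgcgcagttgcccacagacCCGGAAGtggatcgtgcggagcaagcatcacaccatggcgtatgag
ZNF468: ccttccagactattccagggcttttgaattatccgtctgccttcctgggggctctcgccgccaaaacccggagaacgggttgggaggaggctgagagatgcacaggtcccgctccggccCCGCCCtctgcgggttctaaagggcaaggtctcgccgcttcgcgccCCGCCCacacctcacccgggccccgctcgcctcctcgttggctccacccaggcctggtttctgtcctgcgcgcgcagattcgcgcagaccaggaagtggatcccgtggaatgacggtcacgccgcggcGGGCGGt
ZNF83: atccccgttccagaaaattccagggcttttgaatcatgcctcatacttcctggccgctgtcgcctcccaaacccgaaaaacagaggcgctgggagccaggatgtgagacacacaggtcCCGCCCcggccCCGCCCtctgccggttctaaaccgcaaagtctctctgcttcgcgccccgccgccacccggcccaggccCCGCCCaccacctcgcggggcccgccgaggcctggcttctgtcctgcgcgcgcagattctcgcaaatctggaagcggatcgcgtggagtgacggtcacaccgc
ZNF611: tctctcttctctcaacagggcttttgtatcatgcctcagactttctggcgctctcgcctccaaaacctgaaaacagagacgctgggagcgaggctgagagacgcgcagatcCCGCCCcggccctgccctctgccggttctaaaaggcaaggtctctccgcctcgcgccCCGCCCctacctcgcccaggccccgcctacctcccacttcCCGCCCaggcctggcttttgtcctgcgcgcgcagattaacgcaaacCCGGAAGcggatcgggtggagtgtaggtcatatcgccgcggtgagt

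The table matched 5 of the 7 genes, with 7 start sites, and had no entry for ZNF28 and ZNF480. The annotated start of ZNF28 lies inside the ZNF468 window printed above. All 5 genes had a start region rich in CpG dinucleotides, with 30 for ZNF160 and ZNF468, 29 for ZNF83 and 26 for ZNF611 and ZNF766. The median was 20 over 272 promoters of chromosome 19 zinc finger genes and 14 over all 35116 promoters of the table. Of the genes with an entry, the 2 that were near or at 0 in the clones thus had 30 CpG and the 3 others 26 to 29, a narrow difference that was not tested. Additional start sites further inside ZNF83 and ZNF160 had 22 and 4 CpG.

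CCGGAAG was found once each in the windows of ZNF160, ZNF611 and ZNF766 and not in those of ZNF468 and ZNF83, although the inner start of ZNF83 had 1. It occurs in 10.3% of all promoters and in 40.1% of those of chromosome 19 zinc finger genes. GGGCGG was found 5 times in ZNF160, 3 times each in ZNF468, ZNF83 and ZNF611 and once in ZNF766, against 45% of all promoters and 64.7% of the zinc finger promoters that hold at least 1. CCAAT stood only in the ZNF766 window (34.6% of all promoters). TATAAA and the longer words bound by YY1, BANP, NRF1 and ZNF143 were in none of the 7 windows, and they occur in 11.5%, 1.2%, 0.424%, 1.24% and 1.75% of all promoters. Words were searched on both strands, and the capitalised matches do not overlap each other. In pairwise alignment the ZNF468 window was 76.8% identical to that of ZNF83 and 75.5% to that of ZNF611, and the windows of ZNF83 and ZNF611 were 79.1% identical to each other. Every pair that included ZNF766 or ZNF160 was 51.7% to 57.2% identical.

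In TPC1 all 7 genes were detected, at very different levels. Per 1000 bases of the canonical transcript, the mean of TPC1 was 51.1 scaled reads for ZNF766, 42.6 for ZNF480, 37.1 for ZNF611 and 29.3 for ZNF83, and it was 9.14 for ZNF28, 7.87 for ZNF468 and 6.47 for ZNF160. In this order only ZNF83 (24.3 to 35.3) and ZNF28 (7.68 to 10.8) were neighbours whose libraries did not overlap. The order changed in D11, where the level per 1000 bases was 58.0 for ZNF766, 52.2 for ZNF83, 47.4 for ZNF611 and 8.08 for ZNF480. In WB1 ZNF83 also stood above ZNF480, at 48.2 against 24.7, and in TD5 at 36.2 against 18.2. The canonical transcript may not be the form these cells express, which was not tested.

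ZNF160, whose product has been described as a KRAB repressor of TLR4 in intestinal epithelial cells, had 30, 34 and 22 scaled reads in TPC1 and 0 in all 9 clone libraries. These values rest on 75 estimated reads over the TPC1 libraries. Set against the floor of 3 reads per library, the mean of TPC1 (28.7 ± 6.11, SD, n = 3) was at least 7.59-fold higher than D11, at least 8.08-fold higher than WB1 and at least 6.77-fold higher than TD5. The gene was thus not detectable in the clones at this depth, and a low level under the floor cannot be told apart from none.

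ZNF28, a KRAB zinc finger gene, had 49, 41 and 35 scaled reads in TPC1. In D11 all 3 libraries were at 0, WB1 had 0, 2 and 0, and TD5 had 2, 3 and 0. All 9 clone libraries were at or under the floor and below all TPC1 libraries. The estimated reads were 110 in TPC1 against 0, 1 and 3 over the libraries of D11, WB1 and TD5, and the mean of TPC1 (41.7 ± 7.02, SD, n = 3) was at least 11.0-fold, 11.8-fold and 9.83-fold higher.

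ZNF468, which starts beside ZNF28, had 35, 31 and 38 scaled reads in TPC1. The D11 libraries had 2, 0 and 4 and those of WB1 2, 8 and 0, and all 3 of TD5 were at 0. The clones were again below TPC1 in every library, but WB1 replicate 2 stood above the floor. The mean in WB1 was 3.33 ± 4.16 (SD, n = 3), from 7 estimated reads, or 9.62% of that of TPC1 (34.7 ± 3.51). D11 and TD5 were at or under the floor, and TPC1 was at least 9.18-fold and 8.18-fold higher.

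ZNF480, a KRAB zinc finger gene, had 191, 167 and 249 scaled reads in TPC1. The D11 libraries had 29, 37 and 49, those of WB1 116, 150 and 86, and those of TD5 84, 69 and 106. It was below TPC1 in all 9 clone libraries but above the floor in each. The mean of TPC1 was 202 ± 42.2 (SD, n = 3), and those of D11, WB1 and TD5 were 38.3 ± 10.1, 117 ± 32.0 and 86.3 ± 18.6. The clone means were 18.9%, 58.0% and 42.7% of that of TPC1, or 5.28-fold, 1.72-fold and 2.34-fold lower. The D11 libraries lay below all those of WB1 and TD5, while WB1 and TD5 overlapped.

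ZNF766, the neighbour of ZNF480 on the same strand, had 339, 315 and 309 scaled reads in TPC1. D11 had 356, 345 and 393, WB1 344, 358 and 310, and TD5 325, 287 and 321. WB1 and TD5 overlapped TPC1. D11 lay above it without overlap, with a mean of 365 ± 25.1 (SD, n = 3) against 321 ± 15.9, or 114% of TPC1. The pattern of ZNF480 was thus not seen in the gene 1122 bases away.

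ZNF83, a C2H2 zinc finger gene, had 157, 108 and 126 scaled reads in TPC1. D11 had 227, 247 and 222, WB1 199, 246 and 197, and TD5 155, 152 and 175. D11 and WB1 lay above TPC1 without overlap, with means 1.78-fold and 1.64-fold that of TPC1 (232 ± 13.2 and 214 ± 27.7 against 130 ± 24.8, SD, n = 3). TD5 overlapped TPC1 at 161 ± 12.5.

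ZNF611, a KRAB zinc finger gene between ZNF83 and ZNF28, had 198, 152 and 152 scaled reads in TPC1. D11 had 187, 270 and 184, WB1 206, 179 and 193, and TD5 169, 166 and 156. Every clone overlapped TPC1. The means of D11, WB1 and TD5 were 1.28, 1.15 and 0.978 times that of TPC1 (167 ± 26.6, SD, n = 3).

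Over the 7 genes, 4 were below all TPC1 libraries in all 9 clone libraries and 0 were above, while 6.51% of the 16027 tested genes lay below and 5.17% above. The genes were picked on these values, so nothing is read from the count. A gene was tested where it had at least 1 per 1000000 in at least 3 libraries, and ZNF28, ZNF468 and ZNF160 reached this only through TPC1. As the fitted log2 difference of genes at the floor depends on the pseudocount of 1 per 1000000, it is no bound for them: for ZNF160 it was −1.27 in each clone. The other fitted log2 differences in D11, WB1 and TD5 were −1.93, −0.70 and −1.06 for ZNF480, 0.76, 0.64 and 0.28 for ZNF83, 0.31, 0.19 and −0.02 for ZNF611, and 0.17, 0.07 and −0.04 for ZNF766. In bulk RNA, fewer cells that express a gene and less RNA per cell cannot be told apart.

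The genes that were low in the clones did not form 1 unbroken block. Among the 7 taken along the chromosome, ZNF766 (not low) was followed by ZNF480 (low), then ZNF83 and ZNF611 (not low). ZNF28, ZNF468 and ZNF160 (near or at 0) came last. Other zinc finger genes lie before ZNF766, and those lying between the 7 were too low for the test. ZNF600, which lies between ZNF611 and ZNF28 and was named after its values were seen, had 11, 7 and 6 scaled reads in TPC1. D11 had 2, 3 and 2, WB1 3, 0 and 0, and TD5 0, 3 and 2. It was too low for the test, and the clones were at or under the floor.

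The other zinc finger genes near these 7 were then compared. They were those within 500000 bases on either side, 31 besides the 7 genes, and the 7 were taken out of this list with results known. Of the 31, 10 were tested, 7 were at 0 in all libraries, and 14 were above 0 but too low, with at most 25 scaled reads. A call by limma required an adjusted p (Benjamini-Hochberg) under 0.05 together with a difference of 1.5-fold or more. In D11 1 of the 10 was called lower and 0 higher, where 1.95% and 2.89% of all tested genes were. In WB1 1 was lower and 2 were higher (1.59% and 3.39% of all genes), and in TD5 1 was lower and 0 higher (1.48% and 1.12%). The numbers with an unadjusted p under 0.05 in either direction were 4, 7 and 7, or 40.0%, 70.0% and 70.0%, where 44.6%, 42.7% and 27.1% of all tested genes had one. None of the 10 genes was called in all 3 clones, and the median log2 differences were −0.06, 0.27 and −0.25, beside 0.05, 0.06 and 0.00 for all genes tested.

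ZNF616 had 22, 14 and 24 scaled reads in TPC1 and 27, 28 and 22 in D11. It had 0, 5 and 2 in WB1 and 0, 0 and 2 in TD5, so that both lay below TPC1 without overlap. The mean of TPC1 was 20 ± 5.29 (SD, n = 3), and WB1 was 8.57-fold lower, from 5 estimated reads, while TD5 was at or under the floor and at least 4.72-fold lower. ZNF616 passed the filter only through TPC1 and D11, where it is high, so its calls in WB1 and TD5 are given as a description, and 0 of the other 9 genes were called lower in either clone. Its fitted log2 differences of −0.84 in WB1 and −0.94 in TD5 depend on the pseudocount. The D11 libraries overlapped those of TPC1.

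ZNF615 had 60, 62 and 62 scaled reads in TPC1 and 31, 27 and 42 in D11, with a log2 difference of −0.62 (limma adjusted p = 0.00295). It had 67 to 95 in WB1 and 48 to 57 in TD5, and was called in neither. In contrast, ZNF841 was higher in WB1, at 50, 48 and 42 against 26, 20 and 17 in TPC1 (log2 difference 0.70, limma adjusted p = 0.00156). ZNF432 was called higher in WB1 as well, at 121, 131 and 125 against 71, 69 and 85 (log2 difference 0.62, limma adjusted p = 0.000987), and was the 1 gene of the 10 above TPC1 in all 9 clone libraries. None of the 10 was below TPC1 in all 9.

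**Figure D1:**
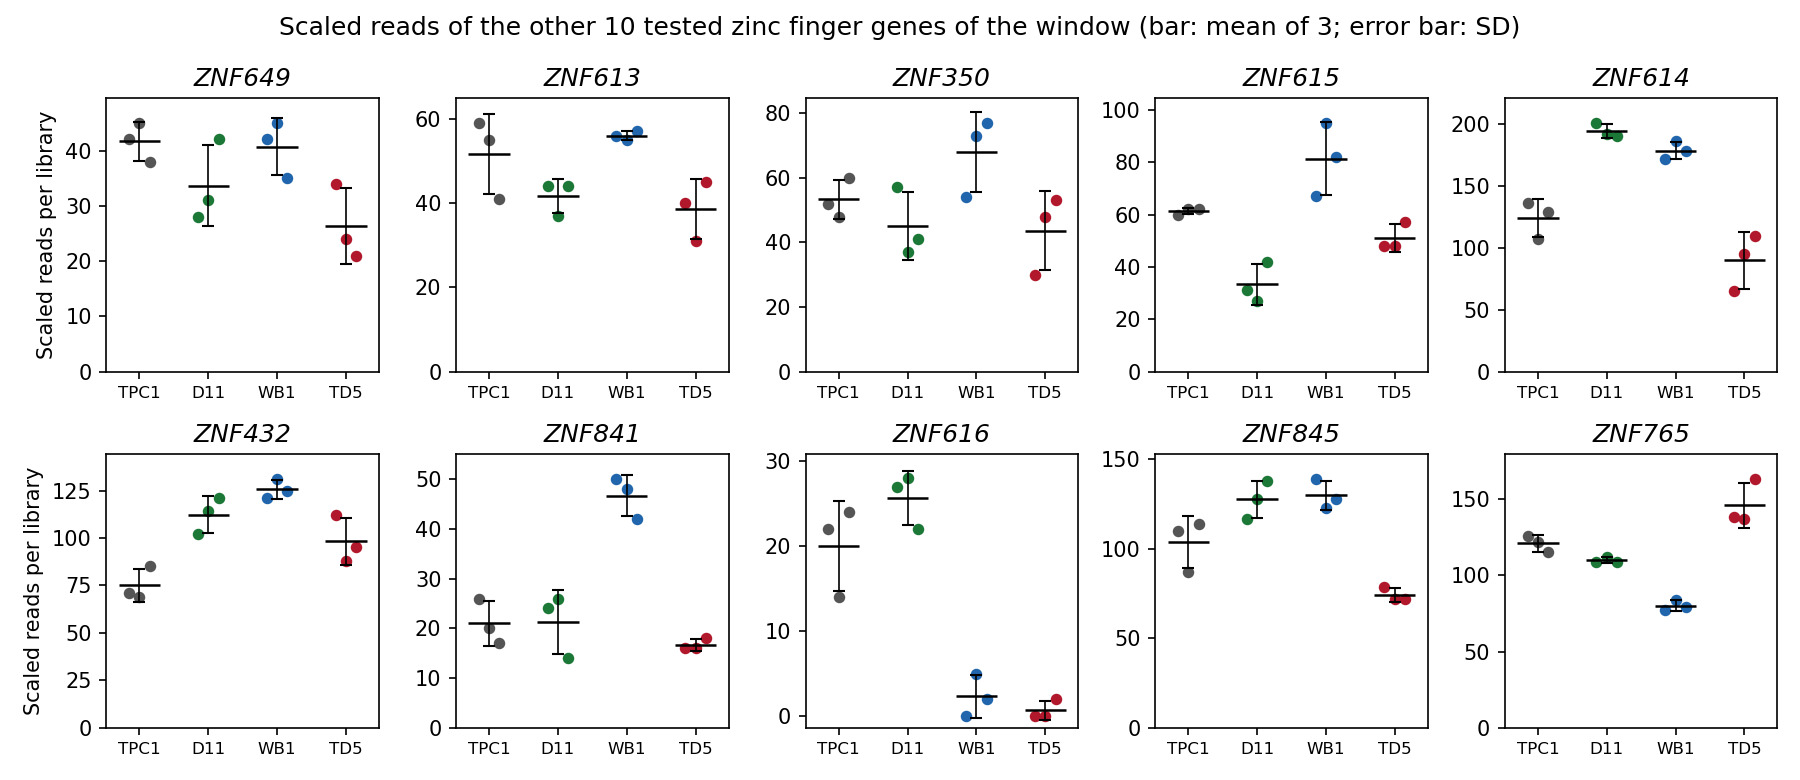
Scaled reads per library (vertical axes) of the 10 tested zinc finger genes of the window other than the 7, in TPC1, D11, WB1 and TD5, with bars for the mean of 3 and error bars for the SD. ZNF616 was near 0 in WB1 and TD5 but not in D11, and ZNF432 was above TPC1 in all 9 clone libraries.

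The clones also differed from one another in this window. Of the 10 genes, 3 were called between WB1 and D11 (2.85% of all tested genes), 3 between TD5 and D11 (3.99%) and 4 between TD5 and WB1 (2.33%). These counts include ZNF616 in WB1 and TD5 against D11, with the same limit of the filter. ZNF614 had 65 to 110 scaled reads in TD5, against 190 to 201 in D11 and 172 to 186 in WB1. It had 107 to 136 in TPC1, so that TD5 overlapped TPC1 while D11 and WB1 lay above it. Differences between clones in the 7 genes were not tested.

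**Figure D2:**
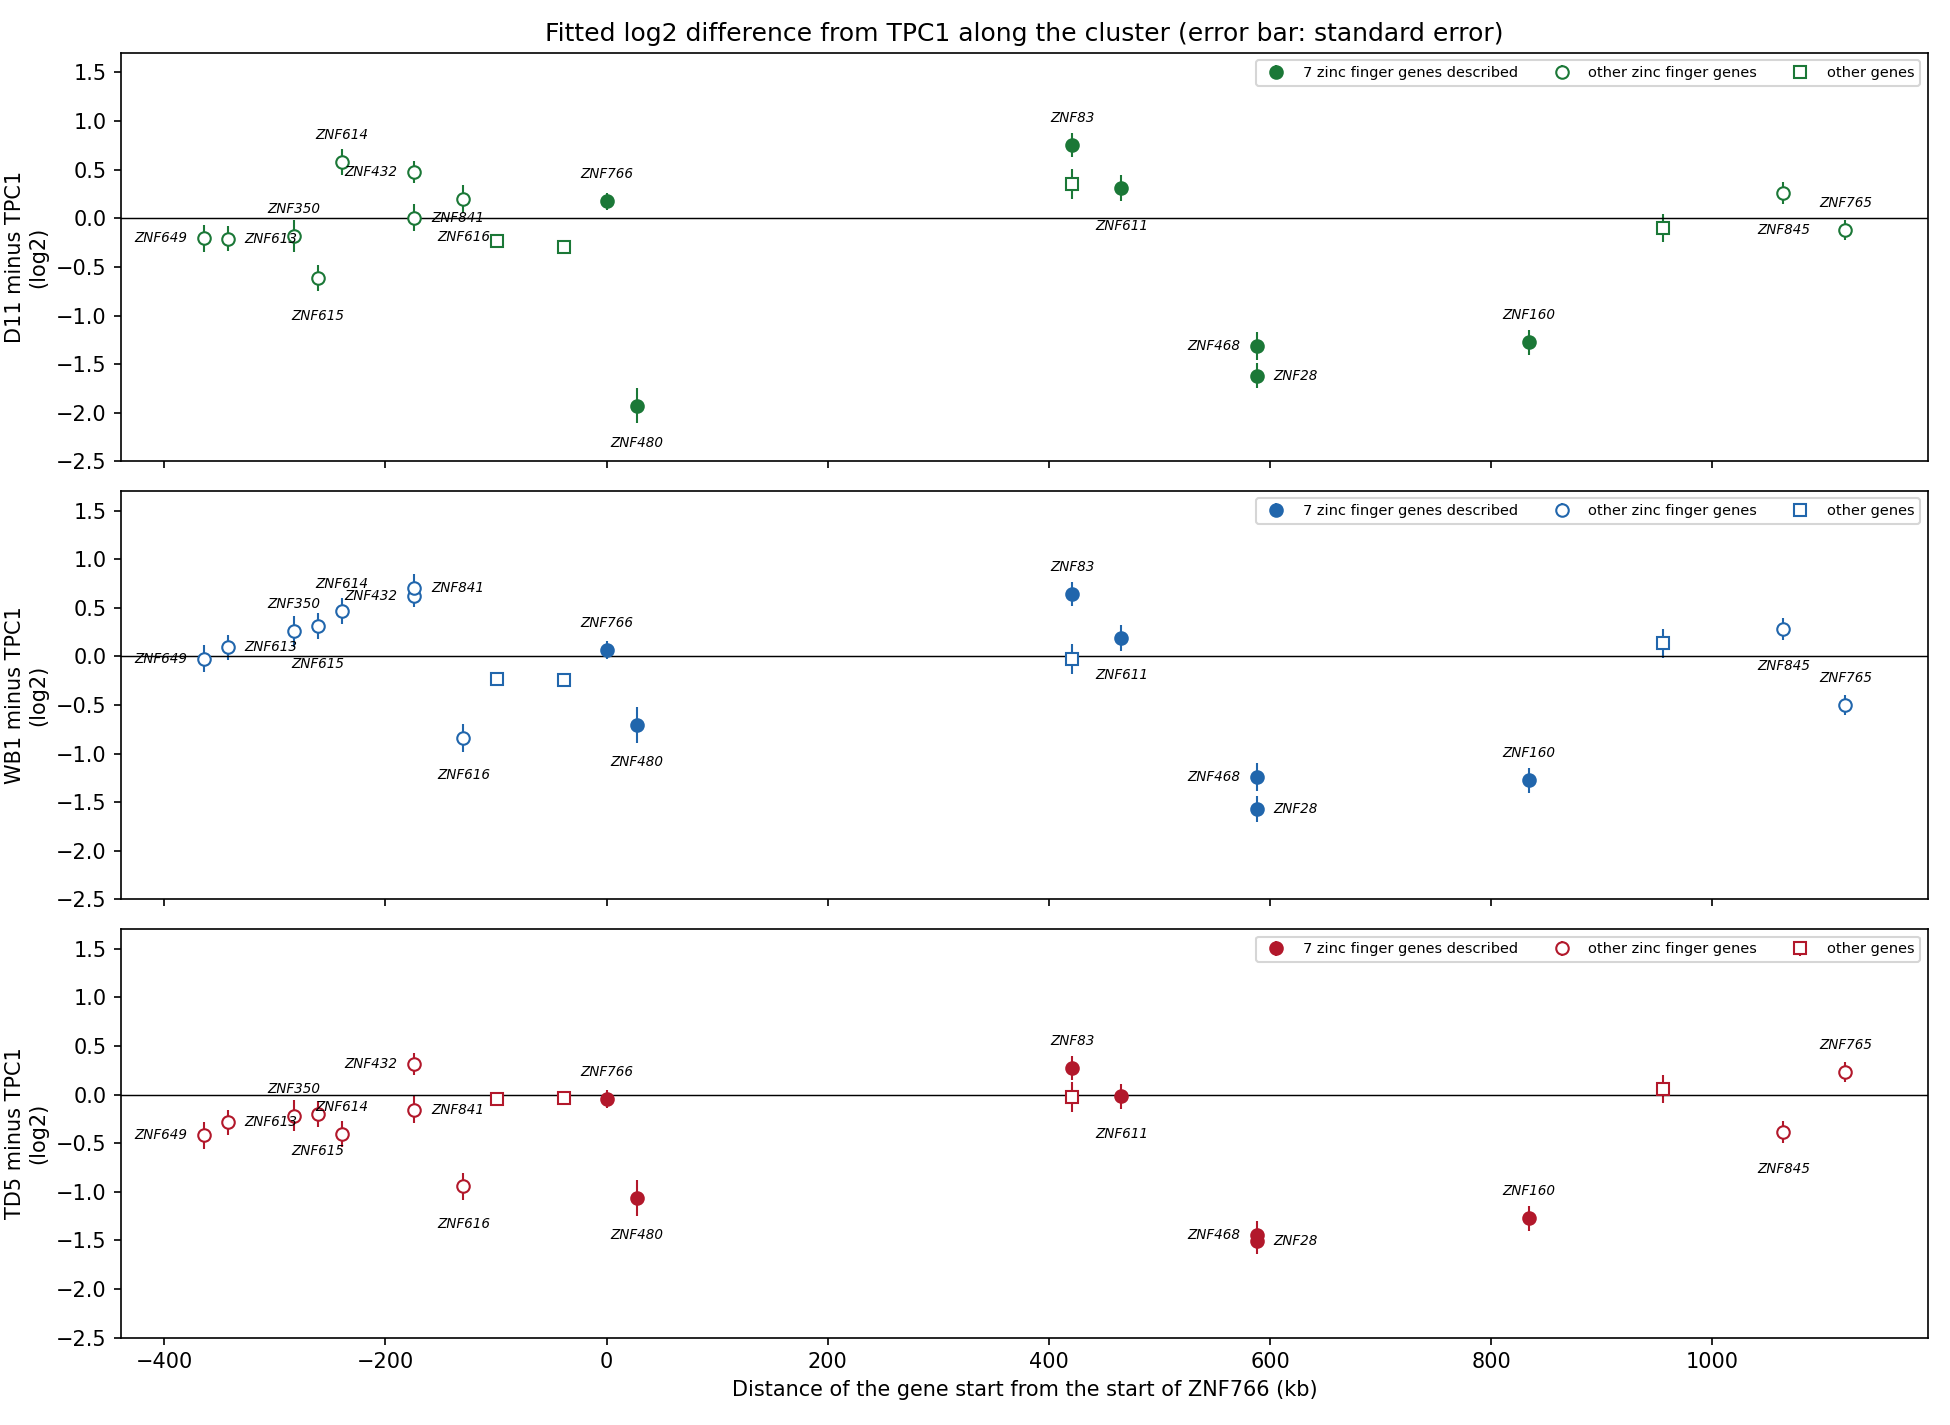
Fitted log2 difference from TPC1 (vertical axes, 1 panel per clone) against the distance of each tested gene's start from that of ZNF766 in kb (horizontal axis), with error bars for the standard error. Filled circles are the 7 genes, open circles other zinc finger genes and open squares other genes. ZNF480, ZNF28, ZNF468 and ZNF160 are below 0 in each panel, with ZNF83 and ZNF611 between them at or above −0.02.

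The same window holds 62 genes that are not zinc finger genes, of which 4 were tested. In each clone limma called 0 of the 4. Of all tested genes, 1.95%, 1.59% and 1.48% were called lower in D11, WB1 and TD5, and 2.89%, 3.39% and 1.12% higher. An unadjusted p under 0.05 was reached by 3, 2 and 0 of the 4, beside 44.6%, 42.7% and 27.1% of all tested genes. Without the 1.5-fold limit, PPP2R1A and AC010320.2 reached an adjusted p under 0.05 in D11 and in WB1, lower than TPC1 in both. In TD5 0 of the 4 did, where 5329, 4956 and 1906 of all 16027 tested genes did in D11, WB1 and TD5. PPP2R1A, the scaffold subunit of protein phosphatase 2A, had a mean of 8605 ± 272 (SD, n = 3) scaled reads in TPC1, and those of D11, WB1 and TD5 were 7304 ± 188, 7320 ± 241 and 8313 ± 499. Its log2 differences of −0.24, −0.23 and −0.05 were under the 1.5-fold limit. AC010320.2 had means of 898, 725, 755 and 874 in TPC1, D11, WB1 and TD5. NDUFV2P1 had means of 53.7, 48.7, 61.0 and 57.3, and AC022150.4, which shares exon bases with ZNF83, had 82.3, 109, 80.0 and 79.7. In D11 the libraries of both ZNF83 and AC022150.4 (99 to 116 against 59 to 96) lay above those of TPC1 without overlap, and in WB1 those of ZNF83 did while those of AC022150.4 overlapped. How reads were divided between them was not tested.

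A list of repressor machinery, which includes partners that KRAB zinc finger proteins act through, was compared in the same fit. The list also holds other chromatin genes and ZNF274, itself a zinc finger gene. All 19 genes of the list of repressor machinery were tested, and limma called 0 lower and 0 higher in each clone (unadjusted p under 0.05 for 7, 7 and 1 in D11, WB1 and TD5). These are 36.8%, 36.8% and 5.26% of the list, against 44.6%, 42.7% and 27.1% of all tested genes. Without the 1.5-fold limit, 6 genes of the list reached an adjusted p under 0.05 in D11, all of them higher. In WB1 3 did, TRIM28 lower and the others higher, and in TD5 0 did. Of all 16027 tested genes, 5329, 4956 and 1906 did. TRIM28, the corepressor, had a mean of 12925 ± 910 scaled reads in TPC1, and those of D11, WB1 and TD5 were 11993 ± 381, 11129 ± 395 and 13390 ± 1260 (SD, n = 3). Its log2 difference in WB1 was −0.21 (limma adjusted p = 0.0222), under the 1.5-fold limit. SETDB1 had means of 1526 ± 57.0, 1415 ± 77.0, 1487 ± 109 and 1461 ± 89.3 (SD, n = 3), with log2 differences of −0.11, −0.04 and −0.06. Over the list the log2 differences lay between −0.13 and 0.50 (D11), −0.21 and 0.37 (WB1) and −0.31 and 0.14 (TD5).

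Zinc finger genes elsewhere on chromosome 19 showed calls in both directions. Of 216 such genes 139 were tested. D11, WB1 and TD5 had 4 (2.88%), 5 (3.6%) and 4 (2.88%) called lower, and 3 (2.16%), 2 (1.44%) and 0 called higher. Over all tested genes the shares were 1.95%, 1.59% and 1.48% lower and 2.89%, 3.39% and 1.12% higher. With median-of-ratios scaling, the numbers called lower were the same, and 0 were called higher in D11 or WB1. None of the 139 was called in all 3 clones, and 3 lay below TPC1 in all 9 clone libraries and 8 above, beside 6.51% and 5.17% of all tested genes. The median log2 differences were 0.12, 0.11 and −0.04. An unadjusted p under 0.05 in limma was reached by 57, 51 and 36 of the 139 in D11, WB1 and TD5 (41.0%, 36.7% and 25.9%), where 44.6%, 42.7% and 27.1% of all tested genes did.

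The summed scaled reads of the 7 genes were 848 to 999 in TPC1, while D11 had 801 to 899, WB1 786 to 943 and TD5 677 to 758. The sum is carried by the genes with most reads, and TD5 alone lay below all TPC1 libraries. The 5 genes whose log2 value per 1000000 had the highest Pearson correlation with that of the sum over the 12 libraries, among 15530 genes ranked, were ZNF136 (0.949, chromosome 19), LACTB (0.946), DNAAF4-CCPG1 (0.921), LRP6 (0.916) and FLG (0.907). These libraries share lines, so the values only describe likeness in this set.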

How the data were processed

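RNA from TPC1, D11, WB1 and TD5 was sequenced as stranded mRNA libraries, 3 per line, and libraries were assigned to lines from their labels. The authors mapped reads with STAR 2.5.3a to GRCh38, counted them on genes of Ensembl release 90 with HTSeq 0.9.1 and scaled each library to 20000000 aligned reads, so what was deposited is a score and not raw counts. Library sums were 20009833 to 20014191. The authors tested with edgeR, which needs counts and was not used here. The reads behind 1 library were estimated from whole numbers missing or doubled among its values, which gave depth and floor. Each value was rounded down to whole reads.

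The 7 genes, the lists of genes and the tests were chosen with earlier results of these data known. Values per 1000000 plus a pseudocount of 1 were fitted on the log2 scale by limma 3.58.1 (R 4.3.3), letting the prior variance follow the mean and giving each of the lines a mean in 1 fit of the 12 libraries. Of 58302 genes, 16027 passed the filter of 1 per 1000000 or more in 3 or more libraries. The thresholds for calls are those given above. The fit was tested on simulated data.

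The names given are those of the 7 genes, DICER1, zinc finger genes of the window called against TPC1, tested genes of the window that are not zinc finger genes, machinery genes called in any clone, TRIM28 and SETDB1, and the 5 genes most like the sum. ZNF600, TMPRSS15 and genes that differed between clones were named after their values were seen. ZNF274 was named because it is a zinc finger gene on the machinery list. Of the gene identifiers, 98.7% matched GENCODE 44. Tables and figures were made with Python 3.11.15, pandas 2.3.3, numpy 2.4.6, Biopython 1.88 and matplotlib 3.10.9.

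Replicate numbers were checked by the correlation of deviations from the line means. Same-numbered libraries of D11 and TD5 correlated at 0.107, 0.172 and 0.348, all over the limit of 0.1 set for pairing. The other pairs of lines did not pass. The labels do not say what a number marks. Differently numbered libraries were not correlated, so these values cannot show whether libraries were paired. Alternatives changed the pseudocount, filter, scaling, minimum change or libraries fitted, added a replicate block or left out each library in turn. Some cell type markers are not reported here, and the siRNA experiment was not analysed here.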

Additional observations from a re-analysis of the deposited data

Results flagged for a closer look

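The following genes, ZNF616 aside, differed between clones by a limma test of the difference itself, at an adjusted p under 0.05 and at least 1.5-fold. The causes were not tested.

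ZNF616 had fitted log2 differences from D11 of −1.14 in TD5 and −1.04 in WB1, but it passed the filter only through TPC1 and D11, and its values in TD5 were at or under the floor, so these depend on the pseudocount and are a description. ZNF614 was lower in TD5 than in D11 (−0.98, adjusted p = 9.19e-05) and than in WB1 (−0.87, adjusted p = 0.000605). ZNF845 was lower in TD5 than in D11 (−0.64, adjusted p = 0.000845) and than in WB1 (−0.67, adjusted p = 0.00125). TPC1 lay between, at 87 to 114 scaled reads, with 72 to 79 in TD5, 117 to 138 in D11 and 123 to 139 in WB1. ZNF841 was lower in TD5 than in WB1 (−0.86, adjusted p = 0.000839) and higher in WB1 than in D11 (0.70, adjusted p = 0.00333). ZNF615 was higher in WB1 than in D11 (0.93, adjusted p = 0.00019), and ZNF765 was higher in TD5 than in WB1 (0.73, adjusted p = 0.000244). For ZNF765 TPC1 lay between, at 115 to 126 scaled reads, with 137 to 163 in TD5 and 77 to 84 in WB1.

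UHRF1, which guides DNMT1 to newly replicated DNA, was the only 1 of the 19 repressor machinery genes called between clones, with WB1 lower than D11 (−0.59, adjusted p = 0.00125). Of all tested genes, 2.85% were called between WB1 and D11, 3.99% between TD5 and D11 and 2.33% between TD5 and WB1. Nothing about the list is read from 1 call among 19 genes. The values of UHRF1 in the 4 lines follow. UHRF1 had 1343 to 1522 scaled reads in D11, 863 to 1003 in WB1, 1071 to 1299 in TD5 and 913 to 1289 in TPC1.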

How the results depend on the processing

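Of 363 alternative values of the 7 genes' log2 differences, 342 moved by less than the spread between replicates. The other 21 were all under another pseudocount: ZNF28 in D11 was −4.44 with 0.1 and −0.60 with 4, and ZNF160 was −3.92 and −0.44. The 342 include values that could not move. A difference between line means is left unchanged by the filter, the fits of only the 6 libraries and the replicate block. Leaving out a library of another clone does not change it either. Without any 1 TPC1 library, ZNF28, ZNF468 and ZNF160 no longer passed the filter. The sign changed in 3 values, for ZNF766 or ZNF611 in TD5, where a library was left out. ZNF480 in WB1 was −0.53 to −0.87 without 1 library.

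For the other 10 zinc finger genes of the window, a pseudocount of 0.1 gave 1 higher in D11 and 2 lower in WB1. A pseudocount of 4 gave 0 lower in D11, WB1 and TD5 and 0 higher in WB1. A filter of 5 per 1000000 gave 0 lower in D11, WB1 and TD5 and 1 higher in WB1. ZNF615, ZNF616 and ZNF841 did not pass it and were not tested. Median-of-ratios scaling gave 1 higher in WB1, where ZNF432 (0.57) was lost. Fits of only the 6 libraries gave 0 lower in WB1 and TD5, where ZNF616 did not pass the filter and was not tested. No minimum change gave 2 higher in D11, 2 lower in WB1 and 2 lower in TD5. Without 1 library the counts were 0 to 1 lower and 0 to 1 higher in D11, and 1 to 2 higher in WB1. ZNF615 in D11 was lost without D11 replicate 2 (−0.53) and ZNF432 in WB1 without TPC1 replicate 2 (0.57). Of 94 alternative values of called genes, 86 kept call and direction, 8 lost the call and 0 reversed. Cases where a gene no longer passed the filter are not among the 94. The 94 do hold values of ZNF616, whose calls are a description.

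For the repressor machinery, no minimum change gave 6 higher in D11, and 1 lower and 2 higher in WB1, and leaving out any 1 library gave 0 calls. For the other chromosome 19 zinc finger genes, no filter gave 9 lower in D11. A filter of 5 gave 2, 3 and 2 lower in D11, WB1 and TD5. No minimum change gave 11 lower and 35 higher in D11, 24 higher in WB1, and 8 lower and 6 higher in TD5. A pseudocount of 0.1 gave 8 higher in D11, and one of 4 gave 0 higher in D11, 2 lower and 0 higher in WB1, and 0 lower in TD5. Median-of-ratios scaling gave 0 higher in D11 and WB1. Without 1 library the counts higher were 0 (without TPC1 replicate 2) to 8 (without TPC1 replicate 1) in D11 and 0 (without TPC1 replicate 3) to 3 in WB1, where it was 1 without WB1 replicate 3. The counts lower were 1 (without TPC1 replicate 1) to 4 in TD5, with 2 without TPC1 replicate 3 or TD5 replicate 2, and 4 to 5 in D11 and in WB1. The causes were not tested.

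The replicate block changed none of these counts, which were 1 lower in D11 and 1 lower and 2 higher in WB1 for the window, and no call between clones. Same-numbered libraries of TPC1 and the clones correlated at −0.193 to 0.0948, under the limit of 0.1. Whether their numbers pair them cannot be told from this, as differently numbered libraries were not correlated.

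The values of ZNF28, ZNF468 and ZNF160 given here rest on 75 to 110 estimated reads over the TPC1 libraries. Levels under 3 reads per library were not detectable. The paper also measured ZNF28 and ZNF468, but not ZNF160, by RT-qPCR in TPC1 and the clones. It reports that those results bore out its sequencing, and they were not examined here. Counts of called genes of 0 to 2 among 10 are too small to rank clones.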

Other observations

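Genes that, like ZNF28 and ZNF160, had at least 1 per 1000000 in every TPC1 library and were at or under the floor of 3 reads in all 9 clone libraries were counted over the whole table. Of 14898 genes with at least 1 per 1000000 in every TPC1 library, 3 met this: ZNF28, ZNF160 and TMPRSS15 on chromosome 21, whose mean in TPC1 was 106 scaled reads. The opposite, at or under the floor in all TPC1 libraries and at least 1 per 1000000 in all 9 clone libraries, was met by 0 genes. The criterion was chosen after the values of the zinc finger genes were seen, so the count is a description.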
